A study of Mus musculus with 6 samples.

Results

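The comparison described here sets 1 array of A20 cells stimulated with TGF-β for 12 h against 1 array of unstimulated A20 cells, 2 of the 6 arrays of the series. Both arrays are titled with DMSO, so neither culture received SP600125, a JNK kinase inhibitor used in the other arm. A20 is an established B lymphoma line from a BALB/c mouse, grown in serum-containing medium. The dose of TGF-β is not given in the sources used here, and the untreated cells have no collection time in the labels. The study asked how JNK bears on the TGF-β response of these cells. The arrays carry 45101 probe sets, of which 24324 were above the floor on 1 or both arrays of this pair, and the brightest probe set of each gene gave 11395 genes above the floor of 18193 named genes. The floor is a signal of 74.2, the median of all deposited signals, and a change from or to it is a bound, written "at least".

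TGF-β binds the type II receptor, which activates the type I receptor. The type I receptor phosphorylates Smad2 and Smad3, which enter the nucleus with Smad4 and switch genes on or off together with other factors. Among the genes switched on are inhibitors of the pathway itself, such as Smad7. In lymphocytes TGF-β is known as a brake on growth, and lower MYC with higher CDK inhibitors is its textbook signature.

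A pair of single arrays has no test, so a gene is called higher or lower here by a 2-fold rule, the size the study design names. The words rose and fell are kept for a second reading of the data, an additive limma fit across all 6 arrays, the 2 of this pair included. It estimates the 12 h effect averaged over the cells without and with SP600125, with a standard error and a Benjamini-Hochberg adjusted p over 11697 genes. The drug is 1 term of the fit, although the unstimulated drug array had 24 h of SP600125 and the 12 h TGF-β array with drug had 12 h. Every value from the drug arm at 12 h therefore carries that difference in exposure as well. The fit has 2 residual degrees of freedom and no replicate arrays. Its error is how far these 6 arrays depart from additive effects of time and drug. Any difference in the TGF-β response between the arms is therefore counted as error. The p-values reflect how these 6 arrays scatter around that fit and nothing beyond them. Leaving out any 1 of the 6 arrays reduced the calls to between 0 and 56 risen and between 0 and 3 fallen genes, and each of the 6 arrays had this effect. No gene called by limma below holds that call under every array left out.

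After 12 h, 378 genes were at least 2-fold higher, 3.32% of the 11395, and 170 were at least 2-fold lower, 1.49%. The median log2 change of all genes was 0.05. Changes of 4-fold or more numbered 32 upwards and 2 downwards. The untreated signal was at the floor for 94 of the 378, and the 12 h signal was at the floor for 47 of the 170. By limma, 319 genes rose at 12 h, 2.73% of those tested, and 292 fell, 2.5%. Of the 378 higher genes 153 were among the risen, and of the 170 lower genes 63 were among the fallen. The limma estimate is in part this same pair, so genes picked for a large change here are favoured in it. These overlaps, and those given below for the largest changes, are therefore no separate support.

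The excess of higher over lower genes depends on how the arrays are scaled. Higher genes were 68.98% of the calls on the deposited signals, 55.57% after scaling to equal array medians (319 higher, 255 lower) and 24.02% after scaling to the control transcripts added at hybridization (189 higher, 598 lower). Those 18 control probe sets were brighter on the 12 h array than on the untreated array by a median of 0.32 on the log2 scale. Scaling to them moved the median of all genes from 0.05 to -0.24. Directions below are therefore to be read against the median of all genes. What sets this offset was not tested.

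The 2 arrays were alike in most other quality measures. Their median signals were 69.3 and 73.0, 10447 and 10691 genes were above the floor, and the ratio of the 3′ to the 5′ actin probe set was 1.25 and 1.29. They differed in the 18S control probe set, at 506.5 and 881.5. Of the arrays that enter the limma fit, the 24 h array with SP600125 stood apart, with an 18S signal of 5878.2 and an actin ratio of 1.89, and the unstimulated SP600125 array had an actin ratio of 1.51. All 7 B cell markers were above the floor on 1 or both arrays, with summed signals of 34601.8 and 33585.5. Of markers of other cells, 1 of 6 for T and NK cells, 3 of 8 for myeloid cells, 2 of 6 for fibroblasts and 2 of 5 for erythroid cells and platelets were above it. Cd3e, the T cell receptor chain, and Col1a1, a fibroblast collagen, were at the floor on both arrays. Csf1r, a myeloid marker, was above the floor on both, at 285.9 and 322.2. None of these marker lists had a member 2-fold higher or lower.

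**Figure D1:**
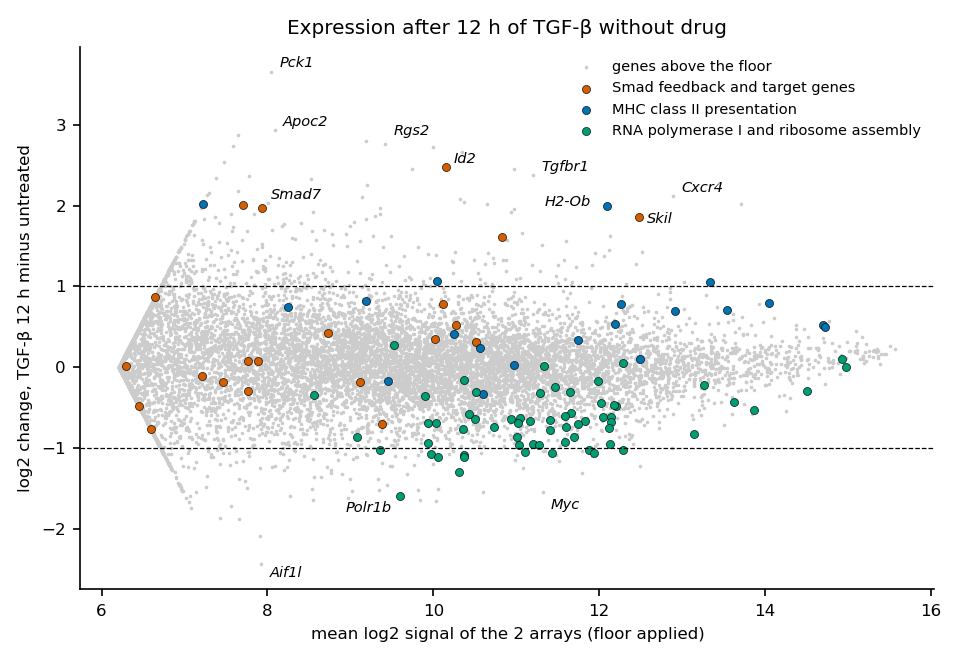
Log2 change after 12 h of TGF-β (12 h array minus untreated array) against the mean log2 signal of both arrays, for the genes above the floor; each point is 1 gene, coloured points belong to 3 lists and dashed lines mark 2-fold. Ribosome assembly genes lie below 0 as a block (59 of 63), MHC class II genes lie mostly above it (18 of 20), and Pck1 and Apoc2 lead the higher genes; the diagonal edges at the left are changes from or to the floor.

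The genes that changed most at 12 h were a mixed set of metabolic, signalling and immune genes. By limma, which includes both arrays of this pair, 19 of the 20 largest increases among bright genes rose. With SP600125, 18 of the 20 were also 2-fold higher, against 2.51% of all genes in that pair. Pck1, the cytosolic PEP carboxykinase of gluconeogenesis, led them. Its signal was 9.6 on the untreated array, under the floor, and 936.3 at 12 h, at least 12.6-fold. In the drug arm it went from 31.5 to 864.9, and the limma estimate was a log2 rise of 3.60 ± 0.23 (SE, adjusted p = 0.00052). Both unstimulated arrays were at the floor and both 12 h arrays were high, without overlap.

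Apolipoprotein genes of one gene cluster came next. Apoc2, the cofactor of lipoprotein lipase, read 98.4 untreated, 750.0 at 12 h and 2295.3 at 24 h, a 7.62-fold change at 12 h. Apoc1 was at least 7.32-fold higher, from 33.0 to 542.9, but the untreated SP600125 array already read 605.4 and its limma adjusted p was 0.054. Apoe, the lipid carrier of the same cluster, went from 94.4 to 263.8, and its limma adjusted p was 0.144. Abca1, the cholesterol exporter, rose by 1.33 ± 0.14 (SE, limma, adjusted p = 0.00303), from 2416.6 to 6445.0 in this pair. Abcg1, a related exporter, read 248.1 and 781.2, with an adjusted p of 0.115 by limma. Both exporters belong to the cholesterol list, where 2 of 26 genes were 2-fold higher and 0 lower.

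Receptors and G protein regulators made up another share of the largest changes. Rgs2, which switches off Gq signalling, rose by 2.85 ± 0.15 (SE, limma, adjusted p = 0.00025), from 262.1 to 1782.9 without drug and from 238.8 to 1833.5 with it. Its 3 other probe sets above the floor gave log2 changes between 0.02 and 3.32. Il1r2, the decoy receptor for interleukin 1, went from 65.3, under the floor, to 496.7, at least 6.69-fold. Ifnlr1, the interferon lambda receptor, read 398.3 and 2638.9, and Gnb4, a G protein β subunit, 368.6 and 2009.6. Without drug, Gpr31b and Snai2 were high mainly on the 12 h array. Gpr31b read 52.8 untreated, 429.7 at 12 h and 129.6 at 24 h. Snai2, a transcriptional repressor of the Snail family, read 136.0, 618.4 and 195.0, and its other probe set above the floor gave a log2 change of 0.43. With drug Gpr31b read 5.5, 154.0 and 23.4, and Snai2 103.7, 251.7 and 277.8. Their differences between 24 h and 12 h did not pass limma (adjusted p = 0.125 and 0.408).

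**Figure D2:**
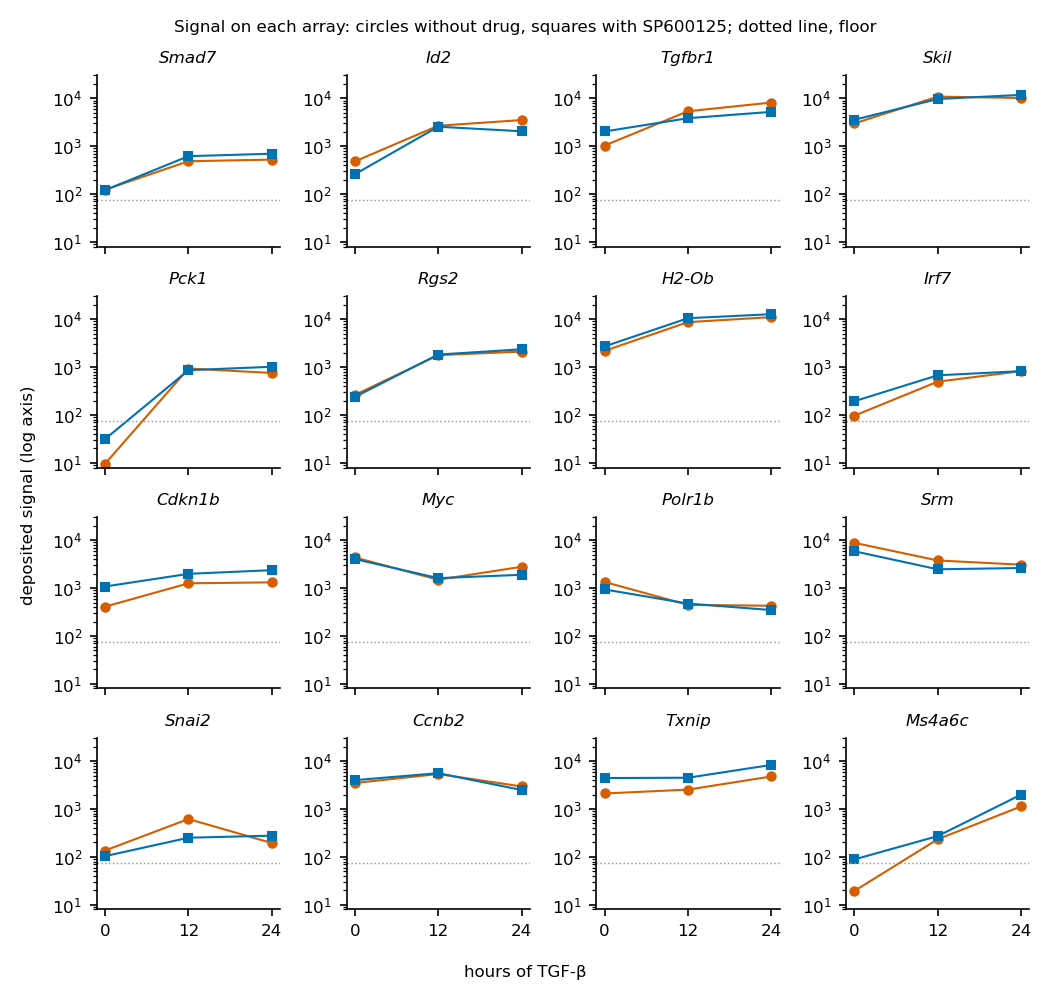
Deposited signal (log axis) of 16 genes on all 6 arrays against hours of TGF-β; circles are arrays without drug, squares arrays with SP600125, the dotted line is the floor, and each point is 1 array. The circles at 0 h and 12 h are the pair described here: Pck1, Rgs2, Id2 and H2-Ob are raised at 12 h in both arms, Myc, Polr1b and Srm are lowered in both, and Ms4a6c goes on climbing to 24 h.

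Part of the Smad feedback and target list was higher by 12 h. Of 21 list members above the floor, 5 were 2-fold higher and 0 lower, against 3.32% of all genes higher, and 7 had a log2 change below 0. The list median was 0.32, against 0.12 in the drug arm and 0.01 with scaling to the control transcripts. By limma 7 members rose, against 2.73% of all genes, and 0 fell. Smad7, the inhibitory Smad that blocks the type I receptor, went from 123.6 to 485.1 without drug and from 121.1 to 619.2 with it. It rose by 2.16 ± 0.23 on the log2 scale (SE, limma, adjusted p = 0.00356).

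Skil, which encodes the Smad corepressor SnoN, was already abundant at 2986.9 and reached 10869.8. Its rise was 1.65 ± 0.12 (SE, limma, adjusted p = 0.000711). Ldlrad4, which keeps Smads from the receptor, read 104.1 and 419.6, and rose by limma (adjusted p = 0.0276). Smurf2, a ubiquitin ligase for the receptor complex, rose less, by 0.58 ± 0.13 (SE, limma, adjusted p = 0.0419). Ski, the other corepressor, read 213.1 and 224.3, and Smurf1 188.9 and 166.0. For Smad7, Skil and Ldlrad4 both 12 h arrays were above both unstimulated arrays.

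The Id proteins, which sequester E protein transcription factors, moved unequally. Id2 went from 481.0 to 2678.0, 5.57-fold, and rose by 2.89 ± 0.20 (SE, limma, adjusted p = 0.000522). Id3 went from 1039.0 to 3174.4, 3.06-fold, and rose by 1.88 ± 0.16 (SE, limma, adjusted p = 0.00128). Id1 read 44.4 and 69.9, at the floor on both arrays. The other probe sets of Id2 above the floor gave log2 changes between 0.53 and 2.34.

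Both signalling receptors were among the higher genes, while their substrates were not. Tgfbr1, the type I receptor, went from 1031.7 to 5368.3, 5.20-fold, and rose by 1.65 ± 0.33 (SE, limma, adjusted p = 0.0314). In the drug arm it started at 2030.5 and reached 3844.7, a log2 change of 0.92 against 2.38 without drug. Tgfbr2, the type II receptor, went from 996.1 to 2227.0 and rose by 0.90 ± 0.18 (SE, limma, adjusted p = 0.0305). Smad2, Smad3 and Smad4 had log2 changes of -0.17, -0.43 and -0.43, and none of the 3 passed limma. Nrros, which holds latent TGF-β, was 3.29-fold lower (343.6 to 104.3), but read 156.8 and 147.6 in the drug arm. Over the 21 ligand, receptor and Smad genes above the floor, 2 were 2-fold higher and 1 lower, against 3.32% and 1.49% of all genes, and by limma 3 rose and 1 fell, against 2.73% and 2.5%.

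Of the JNK and AP-1 genes, 2 of 17 were 2-fold higher and 0 lower, against 3.32% and 1.49% of all genes. Jund, an AP-1 subunit, went from 3567.6 to 9629.0 without drug and from 2767.5 to 8734.0 with it, and rose by 1.54 ± 0.13 (SE, limma, adjusted p = 0.00128). It was the 1 member of the list that rose. Junb read 881.7 untreated, 891.4 at 12 h and 1709.5 at 24 h. Jun read 95.9 and 92.4, and Fos 258.8 and 293.3, so neither differed in this pair by as much as 1.5-fold. With SP600125 both were 2-fold higher, Jun from 71.7 to 191.6 and Fos from 125.0 to 266.1, and neither passed limma. Among immediate-early genes and MAPK phosphatases, 2 of 24 were 2-fold higher and 1 lower, and 5 rose by limma, against 2.73% of all genes. Egr2, a zinc finger factor, was at least 5.08-fold higher (57.1 to 376.8). Dusp6, the phosphatase of ERK, went from 2119.2 to 4508.2 and rose by 1.33 ± 0.13 (SE, limma, adjusted p = 0.00269).

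Genes that build ribosomes had the lowest median of the 46 lists. Of 63 genes for RNA polymerase I and ribosome assembly, all above the floor, 59 had a log2 change below 0, 12 were 2-fold lower and 0 higher, and the median was -0.68. The background was 1.49% of all genes 2-fold lower and a median of 0.05. By limma 37 of the 63 fell and 0 rose, against 2.5% of all genes fallen. In the drug arm, which shares no array with this pair, 55 of the 63 were below 0 and the median was -0.53. The median stayed between -0.98 and -0.64 under the other scalings and the mean of all probe sets.

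Polr1b, the second-largest subunit of RNA polymerase I, went from 1342.7 to 446.5, 3.01-fold lower, and fell by 1.28 on the log2 scale (SE 0.21, limma, adjusted p = 0.0168). Rrp1b went from 1977.0 to 809.3 and Ppan from 1936.1 to 900.2, both factors of the large subunit. Rrp9, of the U3 particle that processes the small subunit, went from 1555.7 to 724.2. Noc2l went from 1930.2 to 908.6. In each of these 5 genes both unstimulated arrays were above both 12 h arrays. The drug-arm values were 937.7 to 475.0 for Polr1b and 2005.4 to 921.3 for Rrp1b.

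Some abundant nucleolar proteins moved less by their brightest probe sets. Ncl, nucleolin, read 25870.7 and 21049.9, a log2 change of -0.30, but its 4 other probe sets above the floor gave changes between -0.95 and -0.44. Npm1, nucleophosmin, read 30103.4 and 32258.3. Fbl, the methylase of box C/D particles, read 14602.5 and 10878.6, and none of the 3 passed limma. Nop56, a partner of Fbl, went from 6237.9 to 3223.0 and fell by limma (adjusted p = 0.0129). The cytosolic ribosomal proteins themselves had 0 of 33 genes 2-fold higher and 1 lower, against 3.32% and 1.49% of all genes. Their median of 0.14 turned to -0.17 with scaling to the control transcripts and to -0.03 with quantile normalization. Rpl12 was the lower gene (1008.0 to 444.3). Its probe set may share sequence with processed copies, which was not tested.

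Myc, whose protein drives ribosome genes, was lowered as well. Its signal was 4364.8 untreated, 1497.1 at 12 h and 2788.5 at 24 h without drug, and 4039.8, 1613.2 and 1896.6 with drug. At 12 h it fell by 1.43 on the log2 scale (SE 0.16, limma, adjusted p = 0.00428), and both 12 h arrays were the lowest of their arm. The difference between 24 h and 12 h was 0.56 with a limma adjusted p of 0.155. Srm, spermidine synthase, went from 8819.7 to 3779.0 and fell by 1.24 on the log2 scale (SE 0.12, limma, adjusted p = 0.00251). Sat1, which acetylates spermidine for export or breakdown, went from 1158.9 to 2896.9 and rose by 1.40 ± 0.10 (SE, limma, adjusted p = 0.000711). Mxd4, a repressor that competes with MYC for its partner Max, rose by 1.03 ± 0.24 (SE, limma, adjusted p = 0.0488). Odc1, the enzyme that opens polyamine synthesis, read 12107.5 and 13945.3, and its other probe sets above the floor gave log2 changes between -0.26 and -0.01. Of 18 genes of the MYC network and polyamine synthesis, 4 were 2-fold higher and 2 lower, against 3.32% and 1.49% of all genes. The list moved in both directions, with 10 members above 0, 8 below and a median of 0.16. By limma 2 rose and 2 fell, against 2.73% and 2.5%.

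The E-box CACGTG, which reads the same on both strands and is bound by MYC with Max, was sought in the 250 bases before each gene's start. A RefSeq promoter of build GRCm38.p6 was available for 9267 genes above the floor, and 9.9% of them held it. The share was 11.8% of 144 genes at least 2-fold lower, 8.39% of 310 genes at least 2-fold higher and 5.17% of 58 ribosome assembly genes. Of the 11 ribosome assembly genes with a promoter that were at least 2-fold lower, 1 held it. That gene, Nop2, is shown with the E-box in capitals, beside 2 other lower genes of ribosome production, which are outside the list and were picked because they hold the motif: Nop2, an rRNA methyltransferase (chr6:125131786-125131865, plus strand), Cd3eap, an RNA polymerase I subunit (chr7:19359654-19359733, minus strand), and Rbm19, an rRNA processing factor (chr5:120116433-120116512, plus strand).
Nop2: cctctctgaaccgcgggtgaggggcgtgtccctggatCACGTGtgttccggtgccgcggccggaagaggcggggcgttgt
Cd3eap: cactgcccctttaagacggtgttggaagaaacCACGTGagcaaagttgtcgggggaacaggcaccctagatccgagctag
Rbm19: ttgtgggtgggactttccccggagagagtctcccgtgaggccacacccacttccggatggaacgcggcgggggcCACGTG
Nop2 changed by -1.05 on the log2 scale and fell by limma (adjusted p = 0.00734). Cd3eap read 409.6 and 198.9, with a limma adjusted p of 0.0601. Rbm19 read 861.4 and 404.7 without drug but 649.0 and 602.5 with it, with a limma adjusted p of 0.27.

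Other growth lists had medians below 0 by smaller amounts. Aminoacyl-tRNA synthetases had 20 of 22 genes below 0, a median of -0.27 and 0 genes 2-fold lower, against 1.49% of all genes. By limma 4 of them fell, against 2.5% of all genes. Translation factors had 22 of 29 below 0, a median of -0.17 and 4 that fell. Of 27 genes of amino acid supply and the ATF4 response, 6 fell and 1 rose by limma, against 2.5% and 2.73% of all genes. By the 2-fold rule 2 of them, Ddit4 and Sesn2, were higher and 1, Shmt1, was lower, against 3.32% and 1.49% of all genes. In all, 20 of the 27 were below 0. Sesn2 read 74.9 and 215.7 without drug but 660.5 and 559.2 with it, with a limma adjusted p of 0.399. Its other probe set above the floor gave a log2 change of -0.25. Shmt1, a serine hydroxymethyltransferase, went from 4164.2 to 1967.4 and fell by 0.92 on the log2 scale (SE 0.13, limma, adjusted p = 0.00957). Ddit4, an inhibitor of mTORC1, was the riser, from 296.1 to 841.0 (limma, adjusted p = 0.0435). Asns, asparagine synthetase, read 9116.4 and 8609.5. Respiratory chain genes had 0 of 53 members past 2-fold, where 3.32% of all genes were higher and 1.49% lower. They had 0 limma calls, with 8 at an unadjusted p under 0.05.

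Several cell cycle inhibitors were higher at 12 h, while few cell cycle genes themselves were past 2-fold. Of 20 CDK inhibitor and pocket protein genes, 5 were 2-fold higher and 2 lower, against 3.32% and 1.49% of all genes, and 4 rose by limma, against 2.73%. The list median was 0.23 and -0.03 with scaling to the control transcripts. Cdkn1b, which encodes p27, went from 409.3 to 1258.0, 3.07-fold, and from 1079.7 to 1985.2 with drug. It rose by 1.25 ± 0.19 (SE, limma, adjusted p = 0.0131). Cdkn2b, which encodes p15, went from 582.1 to 1244.4 and rose by 1.06 ± 0.18 (SE, limma, adjusted p = 0.0188). Ccng2, a cyclin linked to arrest, went from 3579.1 to 8680.7 and rose by 1.25 ± 0.09 (SE, limma, adjusted p = 0.000711). The other 2-fold higher members, Cdkn2d and Rbl2, did not pass limma (adjusted p = 0.0703 and 0.316). Cdkn1a, which encodes p21, read 143.0 and 138.3 without drug but 461.7 and 227.6 with it, with a limma adjusted p of 0.371. E2f4 was 2.04-fold lower (952.2 to 467.3), with a limma adjusted p of 0.117. E2f5 was 3.13-fold lower (1618.5 to 517.1), but its other probe sets above the floor gave -0.30 and 0.09.

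Among 50 genes of G1/S and DNA replication, 41 were below 0 and the median was -0.20. None was 2-fold lower or higher, against 1.49% and 3.32% of all genes. Cdc25a, the phosphatase that activates CDK2, was the 1 member that fell by limma (adjusted p = 0.0434). Of 49 genes of G2/M and mitosis, 35 were above 0, with a median of 0.11 that became -0.19 with scaling to the control transcripts. Cenpe, a kinetochore motor, was the 1 member 2-fold higher (1931.2 to 4238.2), and Ccnb2, cyclin B2, went from 3497.3 to 5389.9. Both rose by limma (adjusted p = 0.00428 and 0.0468). In the drug arm 30 of the 49 mitotic genes were above 0 at 12 h and the median was 0.04.

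At 24 h, against the same untreated array, 48 of the 50 G1/S genes and 46 of the 49 mitotic genes were below 0, with medians of -0.55 and -0.44. In that comparison 5.57% of genes were 2-fold higher and 1.95% lower, and the median of all genes was 0.07. The contrast of 24 h with 12 h was taken from the same limma fit, an addition made after the values were seen. It called 8 genes higher at 24 h and 3 lower of 11697, with 1795 at an unadjusted p under 0.05. All 3 lower ones are cell division genes: Ccna2, Ccnb2 and Ube2c, each with an adjusted p of 0.0495. Ccna2, cyclin A2, read 7798.1 untreated, 6824.2 at 12 h and 3579.5 at 24 h. Ube2c, the ubiquitin carrier of the anaphase-promoting complex, read 9014.8, 8451.2 and 5168.8. By list, an unadjusted p under 0.05 was reached by 33 of the 50 G1/S genes, 47 of the 49 mitotic genes and 4 of the 63 ribosome assembly genes. The count moved with the processing: quantile normalization gave 18 higher and 15 lower genes, the floor at the 25th percentile 12 and 14, and median scaling 2 and 0 (1738 at an unadjusted p under 0.05 by limma). Leaving out any 1 array left 0 calls, with 865 to 1693 at an unadjusted p under 0.05.

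**Figure D3:**
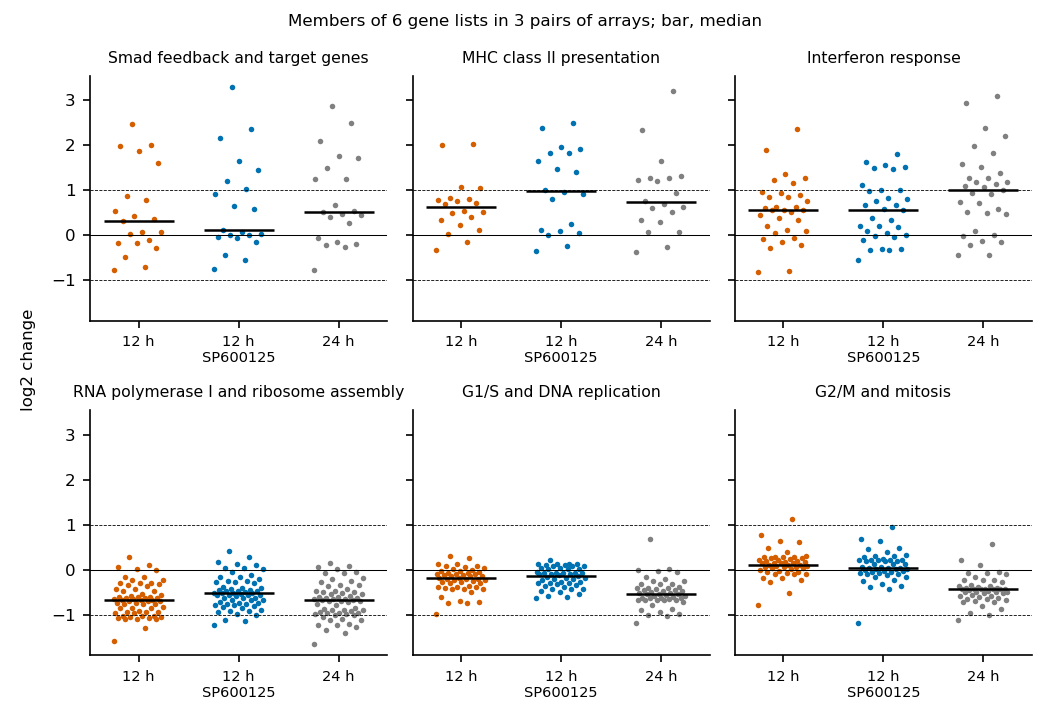
Log2 change of each list member above the floor in 3 pairs: 12 h without drug, 12 h with SP600125 on both arrays, and 24 h without drug, which uses the same untreated array as the 12 h pair; each point is 1 gene, bars are medians and dashed lines mark 2-fold. Ribosome assembly genes sit below 0 at 12 h in both arms (medians -0.68 and -0.53), whereas G2/M genes sit at 0.11 and 0.04 at 12 h and at -0.44 at 24 h.

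Part of the MHC class II antigen presentation list was 2-fold higher by 12 h, and a larger part rose by limma. Of 20 genes, all above the floor, 18 had a log2 change above 0, 4 were 2-fold higher and 0 lower, and the median was 0.62. The background was 3.32% of genes higher. By limma 12 of the 20 rose and 0 fell, against 2.73% of all genes risen. With scaling to the control transcripts the median was 0.31. In the drug arm 10 were 2-fold higher, where 2.51% of all genes were higher and 1.31% lower, and the median was 0.99.

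H2-Ob, the β chain of the peptide exchange inhibitor H2-O, went from 2188.7 to 8725.9 without drug and from 2714.2 to 10524.5 with it, and rose by 1.98 ± 0.09 (SE, limma, adjusted p = 0.00025). H2-Oa, its α chain, went from 730.6 to 1534.5 and rose by 1.02 ± 0.18 (SE, limma, adjusted p = 0.0212). Marchf1, a ubiquitin ligase that removes class II from the surface, went from 32.2, under the floor, to 299.6, at least 4.04-fold. Ifi30, a lysosomal thiol reductase, went from 7207.4 to 14932.9.

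The classical chains had smaller values of change in this pair than in the drug arm, a difference that was not tested. H2-Ab1 read 9347.9 and 15234.7 without drug, and 3004.7 and 10711.1 with it. H2-Eb1 read 6075.8 and 9845.7, against 1889.2 and 7158.4. The drug arm started lower, on an array with 24 h of SP600125 against 12 h on its TGF-β array, so TGF-β and the length of drug exposure cannot be told apart there. Both genes rose by limma, by 1.27 ± 0.22 and 1.31 ± 0.23 (SE, adjusted p = 0.0189 and 0.0224). Cd74, the invariant chain, went from 22263.1 to 31917.7 and rose by 0.66 ± 0.11 (SE, limma, adjusted p = 0.0179). Ciita, the master activator of class II genes, read 234.3 and 393.5, with a limma adjusted p of 0.0792. Its other probe set above the floor gave a log2 change of 1.43. MHC class I genes had 0 of 17 members past 2-fold, where 3.32% of all genes were higher and 1.49% lower. They had 0 limma calls, with 5 at an unadjusted p under 0.05.

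Class II promoters share a Y box, bound by NF-Y. The letters CTGATTGG, or CCAATCAG on the other strand, were sought in the same 250 bases. They were in 6.28% of the 9267 promoters and in 3 of the 15 class II list genes with a promoter entry. The 3 are shown with the box in capitals, since they belong to genes that rose together: H2-Aa (chr17:34287831-34287910, minus strand), H2-Eb1 (chr17:34305769-34305848, plus strand) and H2-Oa (chr17:34092297-34092376, plus strand).
H2-Aa: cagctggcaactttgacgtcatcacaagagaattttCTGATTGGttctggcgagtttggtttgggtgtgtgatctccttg
H2-Eb1: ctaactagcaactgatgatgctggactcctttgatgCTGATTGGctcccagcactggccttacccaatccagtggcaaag
H2-Oa: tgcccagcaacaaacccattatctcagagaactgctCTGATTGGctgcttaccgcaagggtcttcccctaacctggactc
The box begins 51, 62 and 46 bases before the start of H2-Aa, H2-Eb1 and H2-Oa. Among the 310 genes at least 2-fold higher with a promoter, 6.13% held these letters, close to the share of all genes.

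Surface molecules of B cell activation were partly higher. Of 19 costimulation and TNF receptor genes, 3 were 2-fold higher and 1 lower, against 3.32% and 1.49% of all genes, and 4 rose by limma, against 2.73%. Cd83 went from 907.4 to 2276.9 and rose by 1.99 ± 0.26 (SE, limma, adjusted p = 0.00816). Cd86, a ligand of CD28, went from 141.5 to 391.8, and Tnfrsf13b, the receptor TACI, from 2492.6 to 5998.1. Slamf7 was 2.57-fold lower (643.2 to 250.6), with a limma adjusted p of 0.0893.

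Among chemokine, lipid and G protein genes, 5 of 25 were 2-fold higher and 0 lower, against 3.32% and 1.49% of all genes, and 8 rose by limma, against 2.73%. Cxcr4, the receptor for CXCL12, went from 3644.7 to 15784.0, 4.33-fold, and rose by 1.59 ± 0.24 (SE, limma, adjusted p = 0.0141). In the drug arm it started at 10380.6 and reached 21889.8. Ptgir, the prostacyclin receptor, went from 309.3 to 1107.7, and S1pr1, the sphingosine phosphate receptor of tissue exit, from 179.4 to 432.6. Both rose by limma (adjusted p = 0.00884 and 0.0131).

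Part of the interferon response list was higher by 12 h. Of 33 above the floor, 6 were 2-fold higher, against 3.32% of all genes, 0 were lower, and the median was 0.56. By limma 7 rose, against 2.73% of all genes. At 24 h, against the same untreated array, 17 were 2-fold higher, against 5.57% of all genes, and the median was 1.01. Irf7, a factor that amplifies interferon output, read 96.8 untreated, 497.6 at 12 h and 824.2 at 24 h, and rose at 12 h by 2.08 ± 0.27 (SE, limma, adjusted p = 0.00778). Irf9, the DNA-binding part of ISGF3, went from 197.8 to 444.4 and rose by 1.33 ± 0.21 (SE, limma, adjusted p = 0.0166). Usp18, which dampens the interferon receptor, read 61.6, under the floor, 173.8 and 565.3. Its 12 h change did not pass limma (adjusted p = 0.068). Ifi27, which is outside the list, read 40.8, under the floor, 332.1 and 1596.0, and rose at 12 h (limma, adjusted p = 0.0207). Of the 33 members 7 were below 0 at 12 h, among them Bst2 (-0.81) and Irf8 (-0.80). Between 24 h and 12 h, limma called 0 members of the list, with 16 at an unadjusted p under 0.05. Ifit3, a classical interferon target, was at the floor on all 3 arrays.

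NF-κB genes had 0 of 24 members 2-fold higher at 12 h (3.32% of all genes), with a median of 0.16. That median became -0.09 with scaling to the control transcripts. In the drug arm 3 members were 2-fold higher at 12 h (2.51% of all genes). At 24 h, against the same untreated array, 7 were 2-fold higher (5.57% of all genes), with a median of 0.72. Between 24 h and 12 h, limma called 0 members of the list, with 10 at an unadjusted p under 0.05. Nfkbia, the inhibitor IκBα, went from 8511.9 to 14239.2 and rose at 12 h by 0.85 ± 0.10 (SE, limma, adjusted p = 0.00474), one of 3 risers. Nfkb2 read 323.6, 387.4 and 744.8, and its difference between 24 h and 12 h had a limma adjusted p of 0.0778. Limma called 8 genes higher at 24 h than at 12 h, among them Txnip, Ms4a6c and Bhlhe40. Txnip, which binds thioredoxin, read 2113.9, 2543.1 and 4789.0. Ms4a6c read 19.4, 233.6 and 1132.5, and had also risen at 12 h by limma (adjusted p = 0.0142). Bhlhe40, a repressor of the circadian and immune programme, read 103.4, 68.9 and 288.5. The adjusted p of the later difference was 0.0495 for Txnip, 0.0393 for Ms4a6c and 0.0495 for Bhlhe40.

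**Figure D4:**
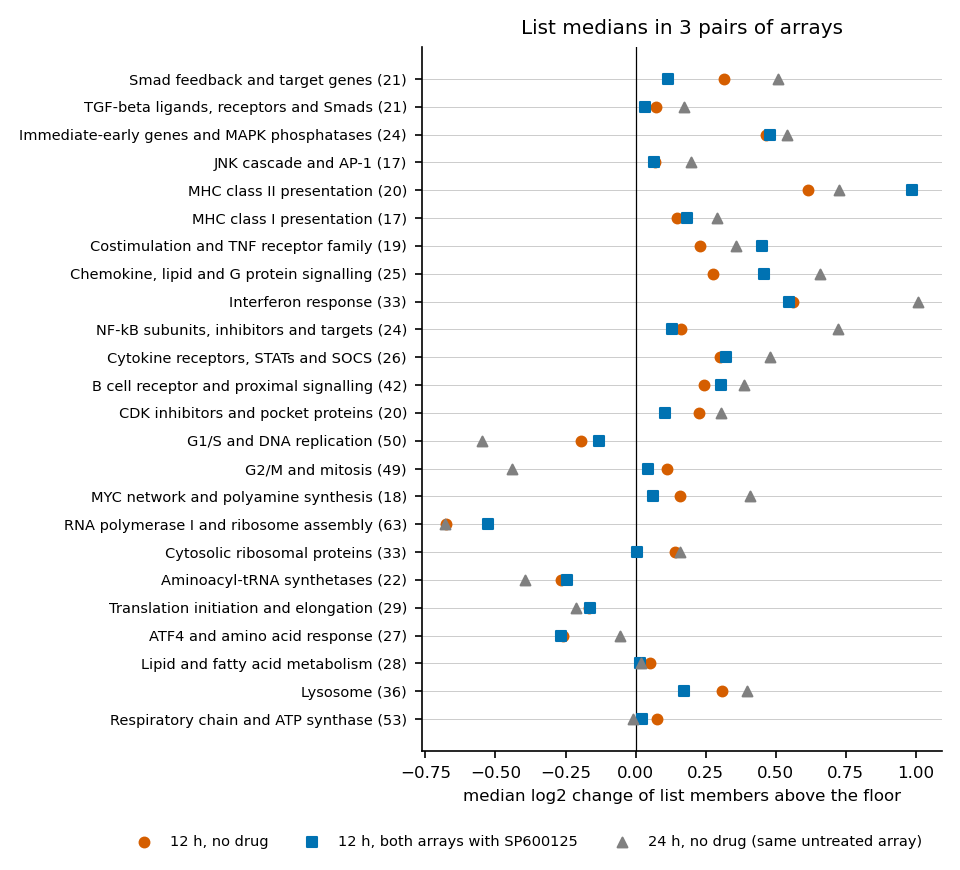
Median log2 change of 24 gene lists, with the number of members above the floor in parentheses, in the 12 h pair, the 12 h pair with SP600125 and the 24 h pair without drug. Ribosome assembly is at -0.68 at both times without drug, while the interferon list moves from 0.56 to 1.01, NF-κB from 0.16 to 0.72 and G2/M from 0.11 to -0.44; the 12 h and 24 h values share an untreated array.

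B cell receptor signalling genes moved in both directions. Of 42, 4 were 2-fold higher and 3 lower, against 3.32% and 1.49% of all genes. By limma 8 rose and 3 fell, against 2.73% and 2.5%. Inpp5d, the inhibitory lipid phosphatase SHIP1, went from 2188.7 to 5174.8 and rose by 1.28 ± 0.14 (SE, limma, adjusted p = 0.00337). Pik3cd, the p110δ kinase subunit, went from 3009.2 to 1361.7 and fell by 1.13 on the log2 scale (SE 0.19, limma, adjusted p = 0.0181), but its other probe sets gave log2 changes between 0.25 and 0.42. Rasgrp1, a Ras activator, went from 557.9 to 253.4 and fell by limma (adjusted p = 0.0465). The receptor chains Cd79a and Cd79b read 3027.9 and 3285.3, and 13467.9 and 14271.5. Bcl6 and Ebf1, factors of B cell identity, read 5736.3 and 6169.3, and 981.5 and 1162.1. The other probe sets of Ebf1 above the floor gave log2 changes between -0.56 and 0.18. Pax5, another such factor, read 114.7 and 219.7, with a limma adjusted p of 0.26. Irf4 read 262.4 and 433.3 without drug but 356.2 and 139.1 with it, with a limma adjusted p of 0.757.

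Single genes stood out in other lists. Of 51 adhesion and cytoskeleton genes, 43 were above 0, 3 were 2-fold higher and 1 lower, against 3.32% and 1.49% of all genes. By limma 6 rose and 0 fell, against 2.73% and 2.5%. The list median was 0.21, and -0.10 with scaling to the control transcripts. Vim, vimentin, went from 331.7 to 1296.3 and rose by 2.21 ± 0.20 (SE, limma, adjusted p = 0.00183), and Selplg, the P-selectin ligand, from 186.4 to 559.7. Bmf, a proapoptotic BH3-only gene, went from 277.9 to 937.1 and rose by limma (adjusted p = 0.0188). Bcl2l11, which encodes BIM, read 13428.2 and 15176.6. Trp53inp1 went from 619.4 to 2627.0 without drug and from 2958.7 to 4538.2 with it. Actb read 36352.9 and 41854.0, and 0 of 12 housekeeping genes were past 2-fold, where 3.32% of all genes were higher and 1.49% lower.

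The largest decreases recurred in part in the drug arm. Of the 15 largest among bright genes, 3 were also 2-fold lower with SP600125, against 1.31% of all genes. Of the 15, 1 was 2-fold higher there, against 2.51% of all genes, and 3 were within 0.2 of 0 on the log2 scale. By limma, which includes both arrays of this pair, 6 of the 15 fell. Aif1l, an actin-binding protein, was the lowest, from 565.7 to 104.4, 5.42-fold lower, with a limma adjusted p of 0.0556. Kcns1, a potassium channel subunit, went from 495.6 to 117.1 and fell by limma (adjusted p = 0.0243). Mxra8, a membrane protein, went from 945.7 to 292.1 and also fell (limma, adjusted p = 0.0136). Prr5, a subunit of mTORC2, read 386.3 and 105.5 without drug but 193.5 and 189.6 with it.

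Against the pair with SP600125 on both arrays, 113 genes were 2-fold higher in both, 29.89% of the 378 here and 38.83% of the 291 there. For lower genes the overlap was 31, 18.24% of the 170 and 20.39% of the 152. In the pair with SP600125, 2.51% of all genes were 2-fold higher, 1.31% were 2-fold lower and the median was 0.01. Of the 378, 309 were above 0 with the drug, with a median of 0.65, and of the 170, 128 were below 0, with a median of -0.51. Different probe sets of 1 gene disagreed for part of the calls. Of 157 higher genes with another probe set above the floor, 25 had at least 1 of opposite sign, and of 52 lower genes, 19 had.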

How the data were processed

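A20 cells were measured on 6 Affymetrix whole-genome mouse arrays, 1 per condition, grouped by sample title. The deposited values are linear signal intensities, made by the authors with GCOS 1.2, per the submitters' processing notes. Settings: not given in the sources used here. The trimmed mean was 500.0 on every array. Depth has no meaning for arrays; their number limits the precision.

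Names came from the 34958 of 45101 probe sets with 1 gene symbol in the platform annotation. Controls were left out and each gene was represented by the probe set with the highest mean log2 signal. Signals under 74.2 were set to it before log2. The pair was read by a 2-fold rule. Limma 3.58.1 in R 4.3.3 fitted TGF-β time (0, 12, 24 h) plus drug to genes that cleared the floor on 2 or more arrays, with eBayes trend and Benjamini-Hochberg adjustment at 0.05. With 1 array per condition, the error of the fit is the departure from additive time and drug effects. It mixes differences between the arms, unequal drug exposure included, with the spread between arrays, which was not estimated by itself. Nothing says that arrays came from separate cultures, so that spread may be technical alone. The script was tested on simulated data.

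Gene lists (46, with 1281 of 1396 distinct genes matched) and members were chosen with earlier results of these data known. Named were the 20 largest increases and 15 largest decreases with the brighter array over 2 times the floor, up to 5 members per direction of each list past 2-fold, and fixed pathway genes. Other named list members, and the motifs and promoters shown, were chosen after their values were seen. Promoters are RefSeq's, build GRCm38.p6. Alternatives were other floors, fold rules, scalings, probe set averaging, filters and arrays left out.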

Additional observations from a re-analysis of the deposited data

Results flagged for a closer look

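Some genes were past 2-fold in opposite directions in the pairs without and with SP600125. Of the 378 higher genes 4 were 2-fold lower with drug, and of the 170 lower genes 3 were 2-fold higher with it. Those among the named genes were Il17re and Mycn. Il17re, a receptor chain for interleukin 17 family cytokines, had a log2 change at 12 h of -1.67 without drug and 1.37 with drug. Mycn, a relative of Myc, had 1.34 without drug and -1.46 with drug. In each of these 4 comparisons 1 of the 2 arrays was at the floor, so the sizes are lower bounds, and the difference between the arms was not tested.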

How the results depend on the processing

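The counts of 378 higher and 170 lower genes became 1319 and 925 at 1.5-fold, 84 and 16 at 3-fold, 1569 and 1099 with the floor at the 25th percentile, 99 and 53 with it at the 75th, 244 and 117 when all probe sets were averaged, and 189 and 598 with scaling to the control transcripts, chosen after seeing the data. Median scaling gave 319 and 255, quantile normalization 339 and 204. By limma, 319 risen and 292 fallen genes became 1 and 1 without the filter on low values, 62 and 30 when all probe sets were averaged, 231 and 450 with median scaling, 179 and 1993 with scaling to the control transcripts, and 0 and 0 with only the 4 arrays at 0 h and 12 h, where 2338 genes had an unadjusted p under 0.05. Leaving out 1 array gave 0 to 56 risen and 0 to 3 fallen genes, with 1422 to 2332 at an unadjusted p under 0.05; the fit then has 1 residual degree of freedom, and a lone array is assumed to vary like the others. The cause of the other changes was not tested. Of 193 named genes, 21 changed sign under some alternative to the floor, scaling or probe set rule, 19 of them with scaling to the control transcripts; none of the 21 was past 2-fold in the 12 h pair. Dim genes are the limit of these arrays, since signals at the floor carry no order. No paired analysis was possible because each condition has 1 array.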
